A study of Bos taurus with 27 samples.

Results

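Transcripts that the oocyte stores before fertilization were measured in 27 pools of bovine blastocysts, to find which of them were still counted in the blastocyst and in which pools. The 38 genes were chosen by name, as genes known for their expression in the oocyte, and 37 of them had a row in the table of 32637 genes. JY-1 was the one without a row and was not analysed here. The choice was made with earlier results of these data known. Shares of these genes set beside those of all genes or gene pairs are therefore a description. A growing oocyte fills its cytoplasm with mRNA, much of which is held with a short poly(A) tail and translated during meiosis or after fertilization. Most of these messages are removed as the embryo turns on its own genome during the early cleavages, first by decay machinery the oocyte supplies and then by products of the embryo. The blastocyst that follows has an outer trophectoderm and an inner cell mass of epiblast and hypoblast, and has by then replaced most of its inherited mRNA.

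Each pool held the RNA of 2 in vitro produced Bos taurus blastocysts, scored as expanding or expanded and of the best quality grade. The oocytes came from abattoir ovaries of mixed breeds and matured in medium with follicular fluid of follicles near ovulation, classed as more or less mature, then were fertilized with semen of 1 bull and stripped of cumulus cells as putative zygotes. The labels give each pool a number but neither the follicular fluid it received nor its IVF replicate. Values are therefore given over all 27 pools as 1 set, no comparison of treatments was made, and relations across pools mix treatments and replicates and were not recomputed within them. The sex of the embryos is not given in the sources used here, and its part in relations across pools was not tested. The cDNA was primed at the poly(A) tail and only the 3’ ends of transcripts were read. CPM, the counts of a gene per 1e+06 counts of its pool, was not divided by transcript length, so the CPM of different genes shows reads counted and not molecules.

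Pools had 10517606 to 44253564 counts in all (median 22293594). An abundance of 1 CPM then equalled 10.5 to 44.3 counts, and 3 counts, the most that a count of 0 allows by counting error alone, equalled 0.0678 to 0.285 CPM. The 7 trophectoderm and 5 epiblast markers were at 1 CPM or more in all 27 pools, with KRT8 at 10633 to 26270 CPM and POU5F1 at 109 to 753 CPM. Of the 5 hypoblast markers, GATA6 (19.5 to 301 CPM), PDGFRA (15.6 to 62.5 CPM) and HNF4A (2.58 to 69.2 CPM) were at 1 CPM or more in all 27 pools. GATA4 reached 1 CPM in 10 pools, and SOX17 was below 1 CPM in every pool. No pair of pools held the same counts within sampling noise, the lowest chi-square per degree of freedom being 23.9.

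Of the 37 measured oocyte genes, 35 (94.6%) reached 1 CPM in at least 1 pool, compared with 52.6% of all genes in the table. All genes here include noncoding RNA, some of it with no count in any pool, and shares over protein-coding genes alone were not computed. At least 12 pools, the number the study required of a gene, had 1 CPM for 24 of the 37 (64.9%), compared with 37.7% of all genes. In all 27 pools, 16 of the 37 (43.2%) were at 1 CPM or more, compared with 27.4% of all genes. These 16 were ZP2, ZP3, OOSP2, OOEP, ZAR1L, BTG4, CPEB1, DDX4, YBX2, PABPC1L, H1-8, KPNA7, WEE2, UCHL1, ACCSL and RNF114. A further 8, GDF9, ZP4, KHDC3L, SOHLH1, ZAR1, NPM2, MOS and BCL2L10, were at 1 CPM in 12 or more but not all pools. The next 11, BMP15, ASTL, TLE6, NLRP2, NLRP8, NLRP9, NLRP13, FIGLA, NOBOX, LHX8 and DAZL, were there in fewer pools than 12. NLRP5 and PADI6 did not reach 1 CPM in any pool. Reads left from the oocyte and reads of RNA made by the embryo cannot be told apart in these counts, and neither can fewer cells of a type and less RNA per cell.

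**Figure D1:**
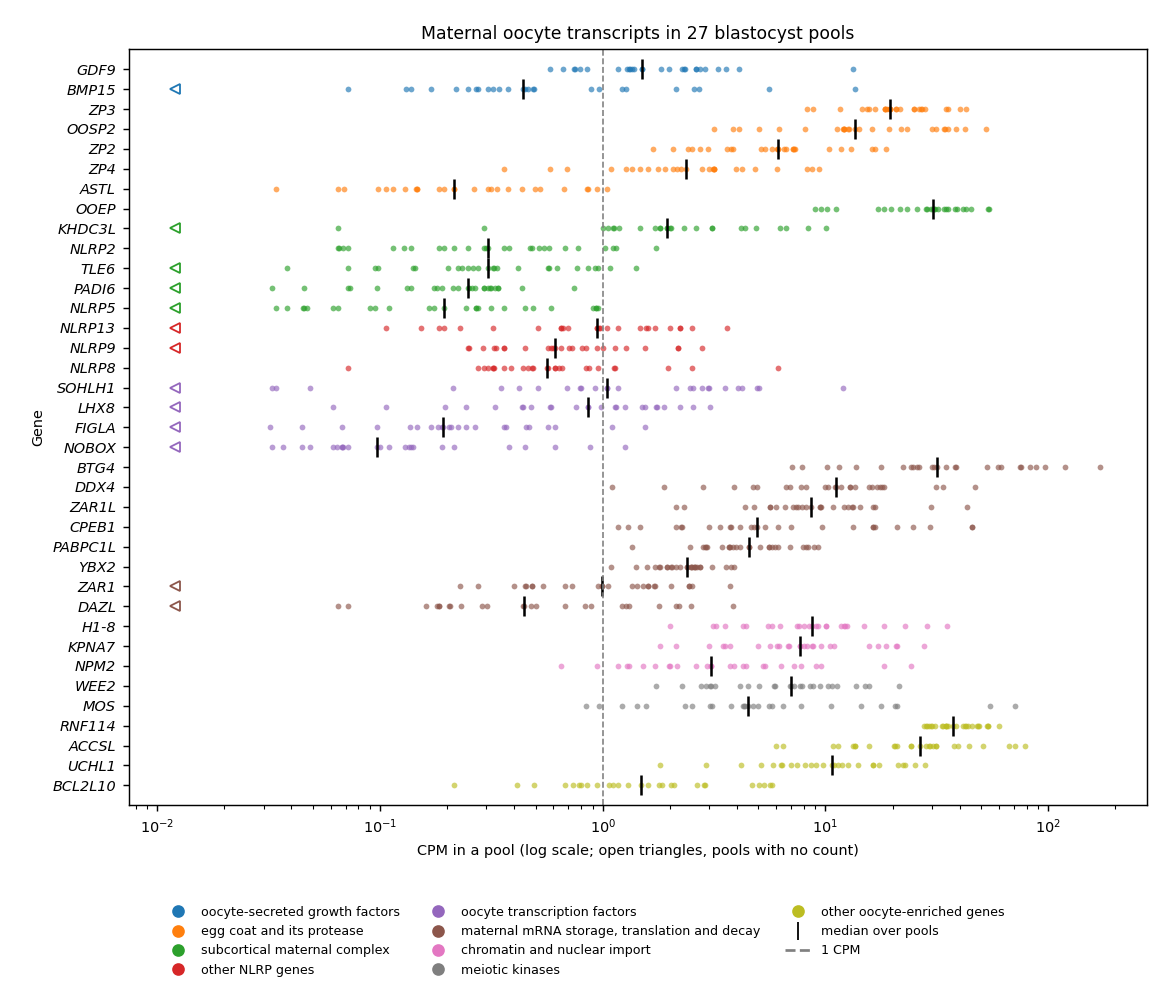
CPM of each of the 37 oocyte genes (rows, grouped by role) in the 27 blastocyst pools on a log axis, with 1 point per pool, open triangles for pools with no count and the median marked. The line at 1 CPM separates RNF114, BTG4 and OOEP, whose pools were all above it, from NLRP5 and PADI6, whose pools were all below it.

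Of the oocyte-secreted growth factors, which signal to the surrounding cumulus cells, GDF9 reached 1 CPM in most pools and BMP15 in few. GDF9 (chromosome 7, 44442456 to 44445396 in ARS-UCD2.0) had a lowest, median and highest level of 0.582, 1.51 and 13.3 CPM, and was at 1 CPM or more in 21 pools. Its highest level, in pool 1, stood above the next, 4.09 CPM in pool 28, and the pools under 1 CPM were pools 14, 23, 31, 32, 42 and 45. BMP15 (chromosome X, 88803971 to 88810596) had a median of only 0.439 CPM and reached 1 CPM in 7 pools. These were pool 1 with 13.6 CPM, pool 21 with 5.59, pool 24 with 2.70, pool 28 with 2.57, pool 22 with 2.12, pool 19 with 1.27 and pool 38 with 1.22 CPM. Both growth factors were thus highest in the same pool and both were lowest in pool 32, where BMP15 had no count.

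Of the 5 egg coat genes, 4 were at 1 CPM in at least 12 pools. ZP2, ZP3 and ZP4 encode glycoproteins of the zona pellucida, the coat that surrounds the egg and binds sperm, and OOSP2 is a secreted oocyte protein. ZP3 (chromosome 25, 34446154 to 34453895) ranged from 8.27 CPM in pool 13 to 42.6 CPM in pool 41, with a median of 19.6 CPM. ZP2 (chromosome 25, 19019145 to 19055627) ranged from 1.68 CPM in pool 32 to 18.7 CPM in pool 1, with a median of 6.10 CPM. ZP4 (chromosome 28, 10614232 to 10621499) had a median of 2.37 CPM and a range of 0.360 to 9.36 CPM, and was below 1 CPM in pools 9, 32 and 45 alone. ZP2 and ZP4 were thus high in pool 1 and low in pool 32, and ZP3 was not. OOSP2 (chromosome 15, 83095368 to 83103258) ranged from 3.17 CPM in pool 32 to 52.8 CPM in pool 24, with a median of 13.5 CPM. ASTL, the cortical granule protease that cleaves ZP2 after fertilization, reached 1 CPM in 1 pool, pool 12, at 1.05 CPM, and its median was 0.216 CPM.

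The subcortical maternal complex is an assembly of oocyte proteins under the plasma membrane that the cleaving embryo needs, and its members were counted very unequally. OOEP (chromosome 9, 12765347 to 12766525) was at 1 CPM or more in all pools, from 9.02 CPM in pool 36 to 54.4 CPM in pool 46, with a median of 30.4 CPM. KHDC3L (chromosome 9, 12753114 to 12754880), its neighbour 10466 bases away, had a median of 1.95 CPM, a highest level of 10.01 CPM in pool 21 and a level below 1 CPM in pools 9, 31 and 32. The other 4 were at 1 CPM in few pools or none. NLRP2 reached 1.74 CPM in pool 25, 1.14 in pool 28, 1.11 in pool 1 and 1.02 in pool 21. TLE6 reached 1.41 CPM in pool 41 and 1.08 CPM in pool 44. NLRP5, the founding component of the complex also called MATER, had at most 0.950 CPM, in pool 21, and was counted in all pools but 1. PADI6, a peptidylarginine deiminase family protein of the oocyte lattices, had at most 0.740 CPM, in pool 13. The transcripts of this assembly were therefore not counted as a unit, and the pool highest for OOEP was not the one highest for any of the other 5.

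The 3 other NLRP genes, all oocyte-enriched members of the same family, were at 1 CPM in 5 to 11 pools. NLRP13 was there in 11 pools, led by pool 14 with 3.60 CPM and pool 35 with 2.52 CPM and followed by pools 13, 5, 28, 38, 22, 41, 1, 19 and 25 with 2.22 down to 1.05 CPM. NLRP9 was there in 7 pools, with 2.78 CPM in pool 21, 2.18 in pool 1, 2.17 in pool 14, 1.55 in pool 46, 1.27 in pool 19, 1.13 in pool 25 and 1.00 in pool 5. NLRP8 was there in 5 pools, with 6.11 CPM in pool 1, 2.51 in pool 38, 1.97 in pool 14, and 1.13 in both pool 19 and pool 25. Pools 1, 14, 19 and 25 reached 1 CPM for all 3 genes.

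Transcription factors that drive the oocyte programme in the ovary were low, with SOHLH1 and LHX8 at 1 CPM in more pools than FIGLA and NOBOX. SOHLH1 (chromosome 11, 103299720 to 103304151) was at 1 CPM in 15 pools, with a median of 1.05 CPM, and ranged from no count in pool 36 to 12.0 CPM in pool 12, the next level being 5.04 CPM in pool 22. LHX8 was at 1 CPM in 11 pools, led by pool 1 with 3.03 CPM and pool 24 with 2.54 CPM and followed by pools 38, 35, 32, 14, 5, 21, 44, 26 and 25 with 2.22 down to 1.13 CPM. FIGLA, which activates the zona pellucida genes, reached 1.55 CPM in pool 19 and 1.10 CPM in pool 42, and had no count in 4 pools. NOBOX reached 1.25 CPM in pool 5 alone, and had a median of 0.0968 CPM.

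Genes for the storage, translation and decay of maternal mRNA were the role with the most members, and 7 of these 8 were at 1 CPM in at least 12 pools and 6 in all pools. BTG4, the adaptor that brings the CCR4-NOT deadenylase to maternal messages and so starts their removal, was the most abundant of them. BTG4 (chromosome 15, 21787287 to 21821958) ranged from 7.05 CPM in pool 45 to 171 CPM in pool 1, its median was 31.7 CPM, and its second highest level was 119 CPM in pool 21. CPEB1 (chromosome 21, 22846041 to 22956498), which controls polyadenylation of stored mRNA, was at 45.5 CPM in pool 21 and 45.4 CPM in pool 1, compared with a median of 4.91 CPM and a lowest level of 1.17 CPM in pool 31. ZAR1L (chromosome 12, 28668737 to 28779052), a relative of the maternal RNA-binding protein ZAR1, ranged from 2.13 CPM in pool 9 to 43.3 CPM in pool 21, with a median of 8.63 CPM. Pools 1 and 21 were the highest for each of these 3 genes.

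DDX4, the germ cell RNA helicase also called VASA, had a different order of pools. DDX4 (chromosome 20, 23358254 to 23424672) ranged from 1.10 CPM in pool 36 to 47.1 CPM in pool 23, with a median of 11.2 CPM. PABPC1L (chromosome 13, 73320011 to 73345799), the embryonic poly(A)-binding protein, ranged from 1.35 CPM in pool 24 to 9.27 CPM in pool 42, with a median of 4.52 CPM. YBX2 (chromosome 19, 26990217 to 26996224), which packages stored mRNA, varied little, from 1.09 CPM in pool 24 to 3.87 CPM in pool 21 with a median of 2.39 CPM. ZAR1 itself (chromosome 6, 67172184 to 67188089) was at 1 CPM in 13 pools, with a median of 0.996 CPM and 3.74 CPM in pool 1. DAZL, which promotes translation in germ cells, was at 1 CPM in 8 pools, with 3.83 CPM in pool 1, 2.49 in pool 19, 2.19 in pool 41, 2.13 in pool 42, 1.79 in pool 12, 1.31 in pool 25, 1.27 in pool 31 and 1.22 in pool 24.

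The 3 genes of chromatin and nuclear import were at 1 CPM in at least 25 pools. H1-8 is the linker histone of the oocyte, NPM2 a histone chaperone that helps remodel sperm chromatin, and KPNA7 an importin alpha of the oocyte and early embryo. H1-8 (chromosome 22, 56187656 to 56223486) ranged from 2.00 CPM in pool 9 to 35.0 CPM in pool 1, with a median of 8.70 CPM. KPNA7 (chromosome 25, 37123013 to 37150162) ranged from 1.81 CPM in pool 32 to 27.7 CPM in pool 1, with a median of 7.70 CPM. NPM2 (chromosome 8, 69335809 to 69351463) ranged from 0.648 CPM in pool 45 to 24.2 CPM in pool 1, with a median of 3.06 CPM and a level below 1 CPM in pools 42 and 45. All 3 were highest in pool 1.

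Both meiotic kinases were counted. MOS, which holds the egg in metaphase of the second meiotic division, had the most unequal levels among the 24 genes at 1 CPM in at least 12 pools. MOS (chromosome 14, 23299079 to 23300457) was at 70.7 CPM in pool 1 and 54.8 CPM in pool 21, against a median of 4.50 CPM, and was below 1 CPM in pools 9 and 32. Its highest pool was 15.7-fold above its median pool. WEE2 (chromosome 4, 104971535 to 104999649), the oocyte kinase that inhibits CDK1, ranged from 1.73 CPM in pool 45 to 21.4 CPM in pool 1, with a median of 6.97 CPM.

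The remaining 4 oocyte-enriched genes differed in how evenly they were spread. RNF114 (chromosome 13, 78003747 to 78017912), a ubiquitin ligase also expressed in many somatic tissues, was the most abundant of all 37 by its median, 37.3 CPM, and had the smallest ratio of highest to lowest pool, 2.18-fold, at 27.7 to 60.3 CPM. ACCSL (chromosome 15, 74160337 to 74173363) ranged from 5.99 CPM in pool 9 to 78.6 CPM in pool 25, with a median of 26.5 CPM. UCHL1 (chromosome 6, 60147577 to 60159280), a deubiquitinating enzyme of oocytes and neurons, ranged from 1.81 CPM in pool 32 to 28.0 CPM in pool 42, with a median of 10.7 CPM. BCL2L10 (chromosome 10, 58230559 to 58237387), a BCL2 family protein of the oocyte, was at 1 CPM in 18 pools, with a median of 1.48 CPM and 5.74 CPM in pool 21.

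Summed over the 37 genes, the pools differed 4.82-fold, from 153 CPM in pool 45 to 737 CPM in pool 1, with a median of 288 CPM. The second highest sum was 596 CPM, in pool 21, followed by 513 CPM in pool 25, and the sums of pools 32, 9 and 31 were 155, 158 and 162 CPM. Without RNF114 the sums differed 6.23-fold, from 109 to 677 CPM. As a share of all counts, the 37 genes held 0.0153% to 0.0737%, with a median of 0.0288%. The number of them at 1 CPM or more was 18 in pools 9 and 45, 30 in pools 1 and 19, and 25 at the median. Pool 1 had a total of 22439236 counts, close to the median pool.

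**Figure D2:**
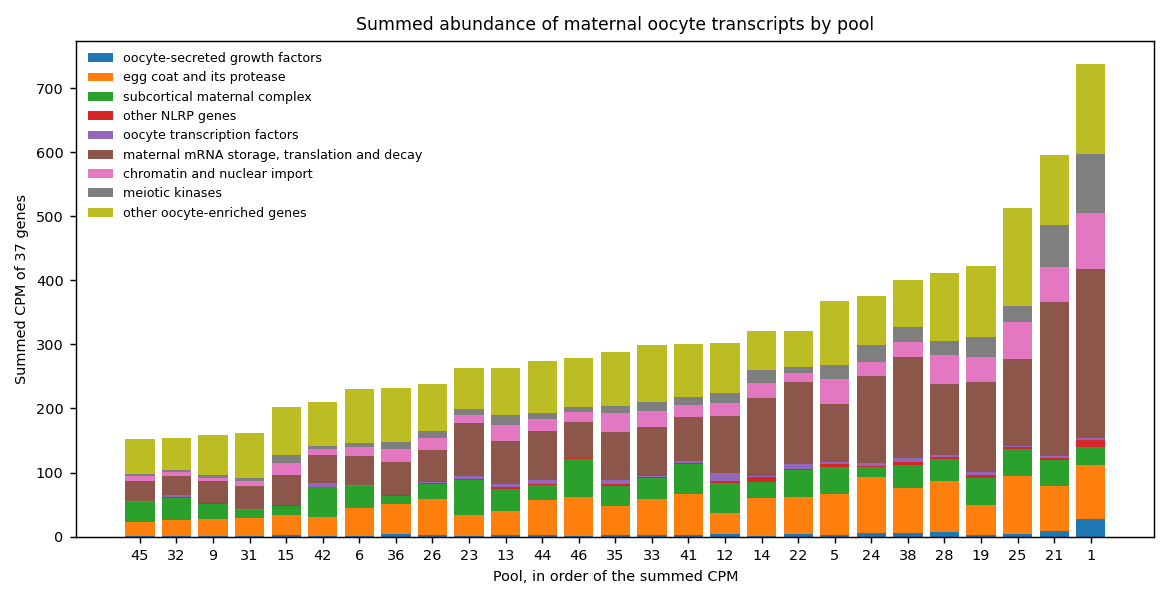
Summed CPM of the 37 oocyte genes in each of the 27 pools, ordered from the lowest sum to the highest and divided by role. Pools 1 and 21 stand at the right with 737 and 596 CPM, and pool 45 at the left with 153 CPM.

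Pool 1 was the highest pool for 11 of the 24 genes at 1 CPM in at least 12 pools (45.8%), whereas it was the highest for 4.12% of the 12310 genes of the table that passed the same filter. Pool 21 was the highest for 5 of the 24 (20.8%), compared with 5.54% of those genes. The highest pool held a median of 10.95% of a member's CPM summed over pools, compared with 6.47% over the 12310 genes. It stood a median of 3.89-fold above the median pool for the members (range 1.62 to 15.7), compared with 1.79-fold over the 12310 genes. RNF114 (5.64% and 1.62-fold) and YBX2 (6.04% and 1.62-fold) were below the median of all genes on both measures.

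Whether the oocyte transcripts varied together was examined over the 276 pairs of the 24 genes, by the Spearman correlation (rho) over the 27 pools with a two-sided permutation test. The test treats pools as independent, although pools of the same IVF replicate came from the same collection of oocytes. Replicates could not be accounted for, so p-values can be too small. P-values were adjusted by the Benjamini-Hochberg method over all 75761895 pairs of the 12310 genes, which set the limit for an adjusted p of 0.05 at a rho of 0.713. There were 68 pairs with a positive correlation (24.6%), compared with 0.0722% of all gene pairs, and 0 pairs with a negative one, compared with 0.0328% of all gene pairs. At an unadjusted p of 0.05 by permutation, 129 pairs were positive and 3 negative, but the share of all gene pairs at that limit is not given here. The median rho of the 276 pairs was 0.256, against 0.025 over all gene pairs. A rho of 0.9 or more was found for 17 pairs (6.16%), compared with 0.000421% of all gene pairs. All 68 pairs kept a positive Pearson correlation of log2(CPM + 1) without the 2 pools farthest from the median of the first gene, at an r of 0.544 to 0.955. Without pools 1 and 21, an exclusion chosen after seeing the data, 46 pairs passed.

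All 68 pairs lay among 16 of the 24 genes, namely GDF9, ZP2, ZP4, OOSP2, KHDC3L, ZAR1, ZAR1L, BTG4, CPEB1, H1-8, NPM2, KPNA7, MOS, WEE2, ACCSL and BCL2L10. BTG4 had the most partners, 13, followed by KPNA7 and BCL2L10 with 12 each, H1-8 with 11 and MOS with 10. ZAR1 had 1, H1-8, at a rho of 0.760. The growth factor GDF9 had 7 partners and was closest to BCL2L10 and BTG4, which were tied (rho of 0.775, adjusted p = 0.0146 for each by permutation with the Benjamini-Hochberg method). These 16 genes were lowest in pool 45 (6 genes), pool 32 (5 genes), pool 9 (4 genes) or pool 31 (1 gene), and highest in pool 1 (10 genes), pool 21 (4 genes), pool 24 (OOSP2) or pool 25 (ACCSL). In pool 1 they were between 2.63 and 15.7 times their median pool, whereas the other 8 genes were between 0.252 and 1.62 times theirs. The 16 were picked by their correlation over these same pools, so that contrast is partly set by the choice.

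**Figure D3:**
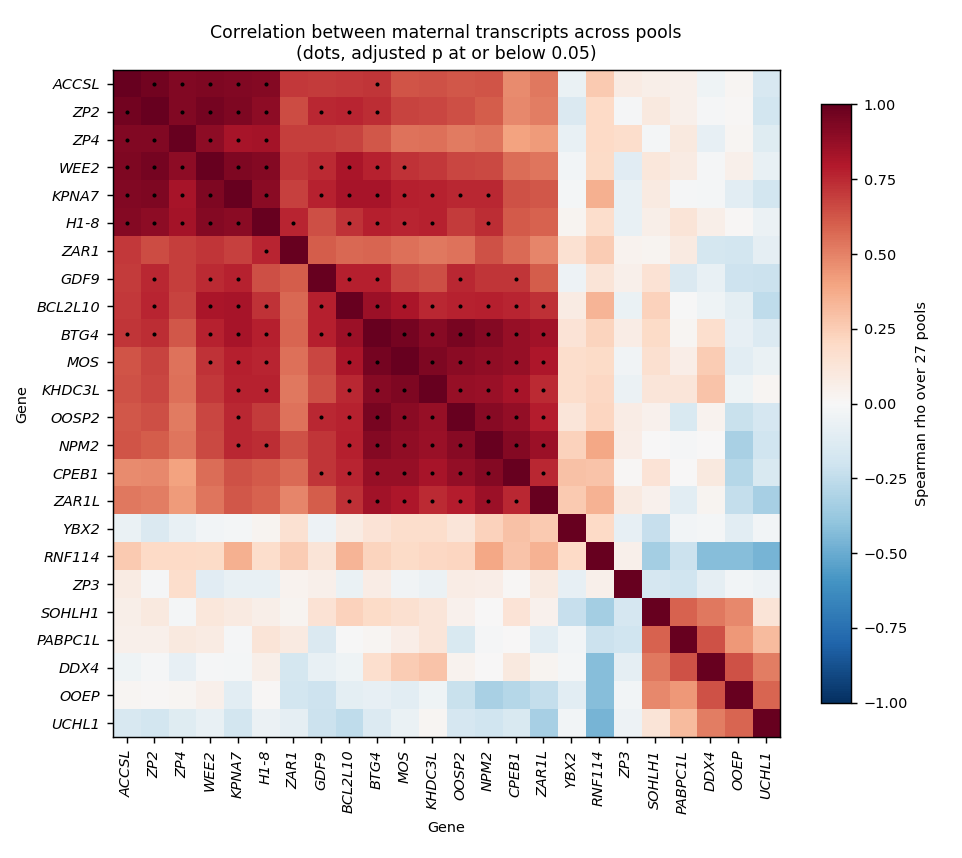
Spearman rho over the 27 pools for each pair of the 24 oocyte genes at 1 CPM in at least 12 pools, with dots on the 68 pairs at or above the limit of 0.713. The dots fill a block of 16 genes, and ZP3, OOEP, SOHLH1, DDX4, YBX2, PABPC1L, UCHL1 and RNF114 have none.

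Within the 16, a pair of sets with the closest order of pools could be read from the correlations themselves, and they are given as a description. The first held ZP2, ZP4, ACCSL, WEE2, KPNA7 and H1-8, with a rho between 0.826 and 0.965 for its 15 pairs. Closest were ZP2 and ACCSL (rho of 0.965, r of 0.964, and r of 0.955 without the 2 farthest pools), followed by ZP2 and WEE2 (rho of 0.957). The second held BTG4, MOS, KHDC3L, OOSP2, NPM2, CPEB1 and ZAR1L, with a rho between 0.746 and 0.954 for its 21 pairs. Closest were BTG4 and MOS (rho of 0.954, r of 0.916, and r of 0.904 without the 2 farthest pools), followed by OOSP2 and BTG4 (rho of 0.948) and by KHDC3L and MOS (rho of 0.937). For each of these 5 pairs the unadjusted permutation p of rho was 1e-07, the smallest the permutations can give, and the adjusted p was 0.00428. Between the sets, rho was 0.402 to 0.826, and 13 of 42 pairs passed, so the sets were not sharply divided. GDF9, ZAR1 and BCL2L10 were placed in neither. BCL2L10 passed with genes of both sets, such as BTG4 (rho of 0.855) and KPNA7 (rho of 0.824).

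The sets cut across the roles of the genes. The zona pellucida genes ZP2 and ZP4 varied together (rho of 0.929), whereas ZP3 had a rho of -0.01 with ZP2 and 0.18 with ZP4. The kinases MOS and WEE2 were in different sets but were correlated, at a rho of 0.726 (adjusted p = 0.0408 by permutation). OOEP and KHDC3L, neighbours on chromosome 9 and partners in the subcortical maternal complex, had a rho of -0.05. ZAR1 and ZAR1L had a rho of 0.488, with an adjusted p of 0.303 in the permutation test.

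**Figure D4:**
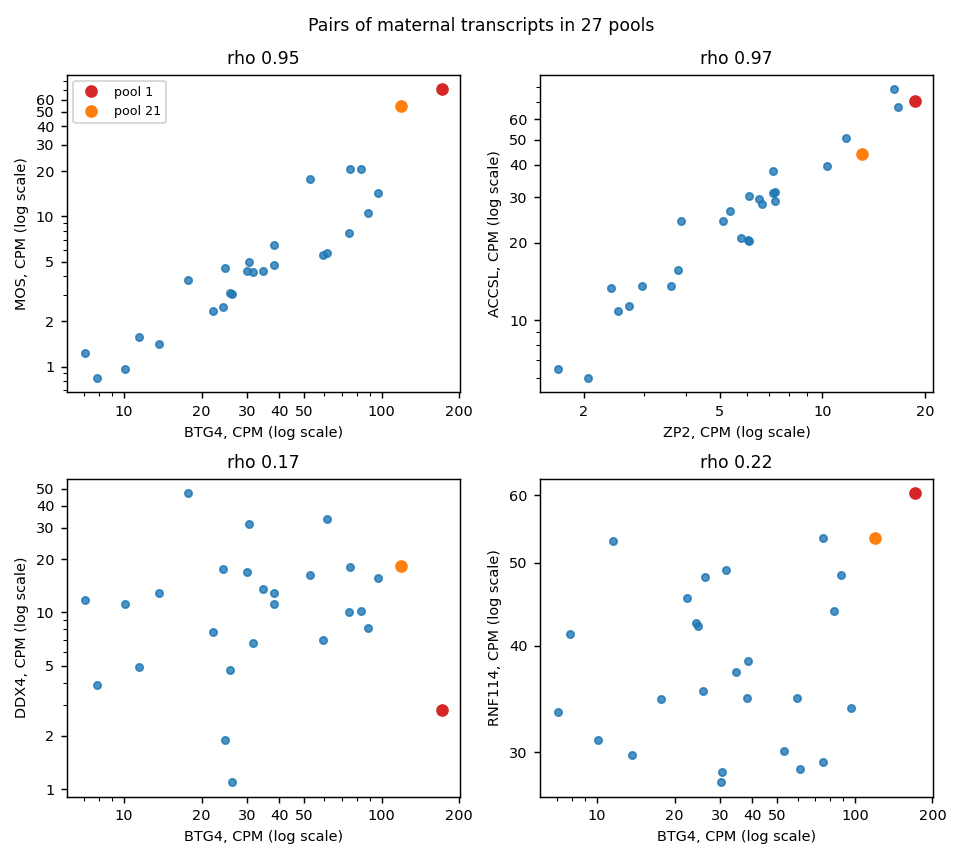
CPM of 4 pairs of oocyte genes in the 27 pools on log axes, with 1 point per pool and pools 1 and 21 in colour. BTG4 with MOS and ZP2 with ACCSL rise together over the whole range of pools (rho of 0.954 and 0.965), and BTG4 with DDX4 and with RNF114 scatter (rho of 0.169 and 0.224).

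The 8 genes without a partner were not alike. SOHLH1, DDX4, PABPC1L, OOEP and UCHL1 had a positive rho with one another, 0.128 to 0.634, but none of their 10 pairs passed the test over all gene pairs. The closest were DDX4 with PABPC1L (rho of 0.634, adjusted p = 0.115) and OOEP with DDX4 (rho of 0.633, adjusted p = 0.116), both by permutation. RNF114 had a rho of -0.463 to -0.213 with these 5 and at most 0.388, with NPM2, among the 23 others. ZP3 had a rho of at most 0.178 and YBX2 of at most 0.291 with any of the others. Over the 128 pairs that join one of the 16 genes with one of these 8, the median rho was 0.0238 and the highest 0.388.

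**Figure D5:**
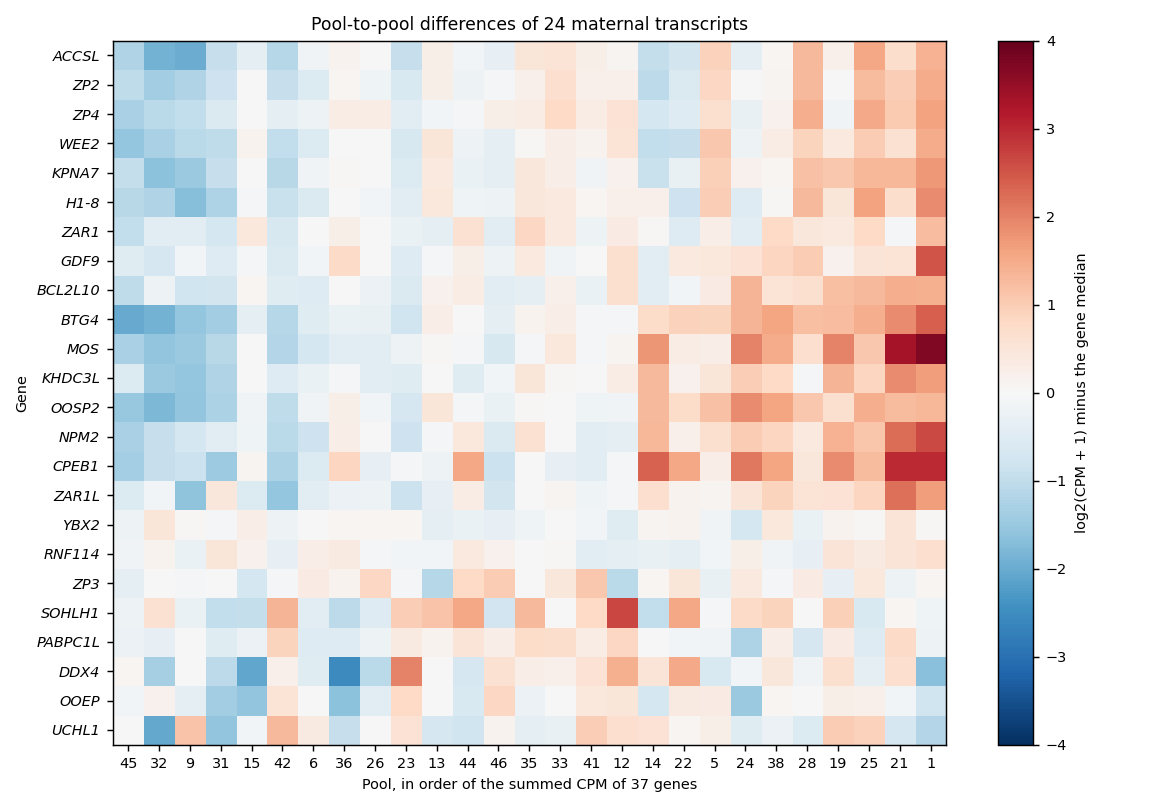
Level of the 24 oocyte genes (rows) in the 27 pools (columns, ordered by summed CPM) as log2(CPM + 1) minus the median of the gene over pools, in colour. The 16 genes with a partner change for the most part from below to above their median from left to right, and the 8 without a partner do not follow that order. The sum that orders the columns includes these genes, and the 16 were picked for varying together, so this difference is partly set by the choice.

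For each of the 24 genes, the 3 genes of the table with the highest rho over the 27 pools were listed as a description. Members themselves held 30 of these 72 places (41.7%), although they made up 0.195% of the 12310 genes. For ZP2, ZP4, WEE2 and ACCSL all 3 places were held by members. For KPNA7 the one that was no member was PABPN1L (0.928), and for BTG4 the first was CCDC201 (0.960), which was also among those of ZAR1L (0.817). LOC100336984 was among the 3 closest to BTG4 (0.954), MOS (0.936) and KHDC3L (0.929). LOC101904481 was among those of CPEB1 (0.949), followed by SAXO1 (0.947), and of OOSP2 (0.927) and NPM2 (0.916). LOC112446327 was closest to H1-8 (0.933) and was among those of ZAR1 (0.709). GDF9 was closest to TESC (0.874), RGS2 (0.833) and RGS16 (0.817), and BCL2L10 to RGS2 (0.908), TESC (0.862) and PABPN1L (0.859), so that the same pair of genes was close to both. The 8 genes without a member partner also had no member among their closest. DDX4 was closest to MAGED2 (0.806), LOC132344272 (0.791) and LOC112445612 (0.775), and OOEP to TMSB15B (0.797), LOC781486 (0.774) and again LOC112445612 (0.762). SOHLH1 was closest to LOC112445143 (0.817), NUDT10 (0.802) and GTSF1 (0.792), UCHL1 to CT47B1 (0.801), SOD1 (0.797) and LOC112445107 (0.795), and PABPC1L to SLC39A10 (0.777), RBMX2 (0.764) and ZRSR2 (0.747). The highest rho of any gene was lower for RNF114 (PGAM1 at 0.730, then MCOLN2 and TMX2), ZP3 (TMEM147 and SLC12A9 at 0.659, then FAAP20) and YBX2 (TBC1D8 at 0.621, then XPOT and SEPTIN2).

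Of 22 further genes known from oocytes and germ cells, 18 were in the table, 16 reached 1 CPM in a pool, 13 did so in at least 12 pools and 6 in all pools. Of all genes in the table, 52.6%, 37.7% and 27.4% reached these limits. PABPN1L, an oocyte poly(A)-binding protein, had a range of 0.413 to 8.33 CPM and passed the same test with 11 of the 24 genes, closest to KPNA7. NLRP14 had a range of 0.432 to 7.58 CPM and passed with 6, closest to WEE2 at a rho of 0.810. The other 11 passed with none. Among those 11 were the piRNA pathway genes MAEL (12.3 to 89.5 CPM), PIWIL2 (1.61 to 29.98 CPM) and TDRD1 (5.60 to 43.4 CPM), the receptor KIT (27.1 to 116 CPM) and the meiotic kinase AURKC (29.9 to 62.2 CPM). Closest to a member among them were MAEL with SOHLH1 (rho of 0.683), ELAVL2 with KPNA7 (rho of 0.679), and SOHLH2 and PIWIL2 with DDX4 (rho of 0.621 and 0.609).

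Of 17 genes for the clearance of maternal mRNA, such as subunits of the CCR4-NOT deadenylase, 15 were at 1 CPM in at least 12 pools and 14 in all. Of all genes in the table, 37.7% and 27.4% were. The summed level of the 17 was 657 to 861 CPM, a narrow span beside that of the summed oocyte transcripts. Low-level genes of the list varied more in proportion, such as DCP2 at 0.0326 to 7.42 CPM. CNOT7, a catalytic subunit, was at 119 to 214 CPM, CNOT1, the scaffold, at 136 to 243 CPM, and ZFP36L2, an RNA-binding protein that recruits the complex, at 47.1 to 91.1 CPM.

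Several of these oocyte genes have a relative used in somatic cells, and 9 of 13 such relatives had more CPM than the oocyte gene in every pool. By the median pool, NPM2 had 1.12% of the CPM of NPM1, PABPC1L 1.30% of PABPC1, YBX2 1.51% of YBX1, KPNA7 2.09% of KPNA2 and BCL2L10 3.07% of BCL2L1. TLE6 against TLE3, PADI6 against PADI2, UCHL1 against UCHL3 and DDX4 against DDX3X were between 1.90% and 4.29%. The other 4 differed. WEE2 was below WEE1 in 26 pools, BTG4 below BTG1 in 22 and CPEB1 below CPEB4 in 15. RNF114 was above RNF166 in all 27. These ratios are of reads at transcript ends and not of molecules.

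None of the 24 genes was correlated with the total count of a pool by the permutation test after adjustment over the 12310 genes, and 0% of those genes were. At an unadjusted p of 0.05, 1 of the 24 was, ZAR1 (rho of -0.405), and 415 of the 12310 genes were (3.37%). Levels were also set beside 6 marker lists, each summarized as the mean log2(CPM + 1) of its genes. The lists were for trophectoderm, epiblast, hypoblast, cumulus and granulosa cells, sperm, and leukocytes. Of the 144 relations, 1 passed after adjustment over all 73830 gene and list pairs, and 10 did at an unadjusted p of 0.05. Of all gene and list pairs, 0.385% passed the adjusted test with a positive and 0.241% with a negative correlation. Their share at the unadjusted limit is not given here, so relations named at that limit are a description. OOEP was higher in pools with a higher mean of the sperm list (rho of 0.690, adjusted p = 0.0296 by permutation, r of 0.677, and r of 0.708 without the 2 farthest pools), as were 0.0244% of all genes tested against that list. The summed sperm list was at 0.256 to 20.5 CPM, and 3 of its 7 genes reached 1 CPM in a pool, TNP2 with at most 14.6, PRM1 with 13.3 and TNP1 with 13.0 CPM, while ODF1 had no count. At an unadjusted p of 0.05, UCHL1 was higher (rho of 0.529) and YBX2 lower (rho of -0.390) with the sperm list, and SOHLH1 lower with the trophectoderm list (rho of -0.486). The call for OOEP was lost when pool 26, 31, 36, 42 or 46 was left out, and its source was not tested.

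Cumulus cells surround the oocyte and could carry RNA into a pool. Of 14 cumulus and granulosa markers, 11 reached 1 CPM in a pool and 7 in at least 12 pools. Their sum was between 56.5 and 587 CPM and was mostly HSD3B1, which was at 19.9 to 517 CPM. Which cells the reads of these markers came from was not tested. CYP11A1 (4.28 to 39.7 CPM) and STAR (7.27 to 19.1 CPM) were also at 1 CPM in all pools, FSHR (median 8.89 CPM) in 26, TNFAIP6 in 21, PGR in 15 and CYP19A1 in 13. HAS2 reached 1 CPM in 9 pools, PTX3 in 5, INHA in 4 and HSD17B1 in 1. The remaining 3 did not reach it, with FOXL2 at 0 in 26 pools and at most 0.0336 CPM, LHCGR at most 0.245 CPM and AMH at most 0.752 CPM. The part of such cells in the oocyte transcripts was not tested beyond the relation with the list. No oocyte gene passed the test with this list, where 0.341% of all genes were higher and 0.228% lower with it. At an unadjusted p of 0.05, UCHL1 (rho of 0.499) and DDX4 (rho of 0.391) were higher with it. The 7 leukocyte markers had a sum of 15.4 to 102 CPM, and no oocyte gene was higher with that list after adjustment, compared with 0.796% of all genes. At an unadjusted p of 0.05, WEE2, ZAR1, ACCSL and KPNA7 were higher with it, at a rho of 0.383 to 0.399.

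Some of the genes share their place on the chromosome with another gene, and whether the counting used the strand of the reads is not given in the sources used here. ZAR1L overlaps FRY, which was at 0.595 to 11.2 CPM and had a rho of 0.342 with it. BTG4 overlaps HOATZ, which was at 0 to 3.34 CPM and had a rho of 0.142 with it. ZAR1 overlaps FRYL (3.75 to 14.0 CPM, rho of 0.205), and TLE6 overlaps TLE2 and ZNF77. In each of these spans, reads of the partner could have been counted on the oocyte gene or the reverse. NLRP genes are near copies of one another in part, and reads shared between them could have been split or dropped by the counting.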

How the data were processed

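RNA-sequencing counts were analysed for 27 pools of blastocysts. Libraries were made by the authors with a kit for transcript ends (SMART-Seq v4 3’ DE), and their forward reads were trimmed (fastp), aligned to the ARS-UCD2.0 genome (STAR) and assigned to genes (featureCounts). The deposited values are raw counts of reads per gene, not normalized. Tool versions and annotation release are not given in the sources used here. All 27 columns were used, as 1 set.

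CPM was calculated from column totals. The members and gene lists were chosen with earlier results of these data known. Members at 1 CPM in 12 pools entered correlations with the other retained genes. Every member is named, with the 3 genes closest to each retained member. Spearman correlations were tested against 10000000 random orders of the pools, and Pearson correlations of log2(CPM + 1) with 100000 permutations. The plan set 100000 permutations and adjustment over the members, but adjustment was made over all retained genes, which needed more orders. The calculations were tested on simulated data. Alternatives covered the CPM limit, scaling (edgeR TMM, DESeq2 size factors), filter, pseudocount and each pool left out. Of the planned comparisons of related genes, 1 is not reported here. Positions came from RefSeq (ARS-UCD2.0), which matched 37 of 37 genes. Python 3.11.15 and scipy 1.17.1 were used for the tests, and edgeR 4.0.16 and DESeq2 1.42.0 for scaling in R 4.3.3.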

Additional observations from a re-analysis of the deposited data

How the results depend on the processing

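Of 827 recalculated values, 8 were labelled moved, 1 weaker and 818 the same as the main value. For counts this meant staying within a set ratio, and for sums and medians within the standard deviation over pools. For 630 values, the rho of 21 named pairs, it meant the same side of the rho limit, whether passed or not. Those pairs were the closest partners found in these same data. The number of genes at the limit in all pools was 16 at 1 CPM and 7 at 2 CPM. With no filter, at least 1 count in place of 1 CPM, 37 genes in place of 24 had it in at least 12 pools. The 68 correlated pairs became 22 of 120 when only genes at 1 CPM in all pools were kept, a set that leaves out MOS, NPM2, KHDC3L and other genes with partners. They became 62 with TMM scaling, 60 with DESeq2 size factors, 75 with Pearson correlation of log2(CPM + 1) and 79 with a pseudocount of 0.1. With each pool left out in turn, there were 51 (without pool 31) to 85 pairs (without pool 14), and 0 to 1 relations with a marker list. ZAR1 with H1-8 no longer passed without pool 31, at a rho of 0.737. Medians of all 37 genes under TMM and DESeq2 scaling stayed within the spread of their pools. CPM per kilobase was not run, since the gene table used holds no transcript lengths. No paired analysis was made, because the labels give neither group nor replicate numbers. The study lists follicle maturity and read totals under sample numbers that are not the pool numbers, and pools were not matched to them by read totals. Genes under 0.285 CPM are not detectable reliably in the shallowest pool, and intervals from 3 counts cover counting error only.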
